A study of Mus musculus with 2 samples.

Results

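The transcripts of 9 genes of the Rock kinases and of non-muscle myosin II were measured in dissociated mouse back skin: Rock1, Rock2, Ppp1r12a, Myh9, Myh10, Myl6, Myl9, Myl12a and Myl12b. They were taken by gene symbol from the feature table of a single-cell RNA-seq experiment. All 9 were found among the 31053 features. No cut on a measured value was used, but the members were chosen with earlier results of these data known.

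Non-muscle myosin II is the motor that pulls on actin filaments. It is built from heavy chains, essential light chains and regulatory light chains. Contraction is switched on when the regulatory light chain is phosphorylated, and Rock kinases, downstream of the small GTPase RhoA, raise that phosphorylation both directly and by inhibiting myosin phosphatase. In skin, actomyosin tension is known to act on keratinocyte adhesion, differentiation and the shape of the hair follicle.

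The data came from 1 control mouse and 1 miR-205-inducible mouse, both carrying K14-H2BGFP, a nuclear green reporter in keratin 14-expressing cells. The inducible mouse also carried pTRE2-miR-205 and Krt14-rtTA, so the Krt14 promoter determines which cells can switch on the microRNA with doxycycline. The labels give the strain as C57BL/6, and the study's methods describe transgene founders made in FVB mice, littermate controls and loading on the same chip. The chow contained doxycycline from postnatal day 49 to the collection of skin at postnatal day 53, that is for 4 days. The extraction protocol states doxycycline for both sex-matched mice, but the control is labelled untreated in its characteristics. Cells were sorted on surface proteins and H2BGFP to a mixture of epidermal, hair follicle and dermal cells of 3:5:2. With 1 library per group there is no replicate check, no test and no p-value here; every difference between libraries is also a difference between 2 mice, and intervals cover counting error only.

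Unique molecular identifiers (UMIs) each count 1 captured RNA molecule. There were 4545 barcodes with 55465594 UMIs in the control and 4264 barcodes with 49733560 UMIs in the induced library. The study's cell filter kept 3936 control cells with a median of 12198.5 UMIs and 3628 induced cells with a median of 11752.5 UMIs. Only 11 barcodes occurred in both libraries. Cells were put into classes by UMIs of fixed marker genes, which named 59.1% of the control cells and 67.4% of the induced cells. In all, 11 classes held at least 50 cells in each library. In each, 2 to 5 of its own markers, and no other class's, were among the top 10 genes. Gates used markers from the same lists, so this is not an independent check of the names. Orders of levels across classes, and counts of classes, cover these 11 unless another class is named. There were 320 control and 436 induced cells of the class like stem cells of the hair follicle (HF-SC-like), and 69 and 70 of the hair germ-like (HG-like) class, the progenitors just below the bulge. Class sizes were not compared, since marker genes differed between the libraries. CPM are the UMIs of a gene scaled to the total of its class. Krt24 was at 307 CPM in the control and 643 in the induced library in HF-SC-like cells, and Fst was at 1483 and 330 in HG-like cells. All 6 HF-SC-like markers and 4 of the 6 HG-like ones were at least 2-fold above the other kept cells. Edar, an HG-like marker, was at 0 CPM in both libraries.

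The sequence of the induced microRNA is shown because it defines the perturbation. Mature mmu-miR-205-5p lies at chr1:193507503-193507524 on the minus strand (RefSeq, GRCm38.p6), and the capitals mark its seed, bases 2 to 8:
mmu-miR-205-5p: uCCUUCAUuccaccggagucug
The longest annotated 3′ UTR of each of the 9 genes was searched on the transcript strand for ATGAAGG, the 7-base complement of the seed, which 10.4% of 19915 genes hold. Rock2 was the only member with a match, and the other 8 genes held none in these UTRs. The match is at chr12:16995070-16995076 on the plus strand (NCBIM37, which is not the build of the counts), at base 3623 of a 3633-base UTR. It is shown with its flanks, the match in capitals:
Rock2 3′ UTR: acattgaagagATGAAGGcaga
A match is a description of letters and not a measurement of binding. In separate experiments the study captured miR-205 on the Rock2 3′ UTR and listed Ppp1r12a among the bound mRNAs. Its list also holds genes of the wider pathway described below. Among them are Dlc1, which was lower in induced HF-SC-like cells, and Cdc42bpb, which was higher with an interval that includes 0. Whether the bases shown are those captured was not checked. The annotated UTR of Ppp1r12a was short, at 388 bases.

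The 3 regulatory light chain genes are near-copies in their coding sequence, which matters for how their reads can be told apart. Each coding sequence has 519 bases. Myl12a and Myl12b, neighbours on chromosome 17 separated by 3276 bases, are identical at 96.5% of them, whereas Myl9 on chromosome 2 is identical to Myl12a at 85.5% and to Myl12b at 86.3%. Codons 14 to 23 of each are shown, with capitals for codons 19 and 20, the threonine and serine that are phosphorylated when the motor is switched on:
Myl9: aggccccagagggctACGTCCaatgtcttc
Myl12a: cgccctcagcgcgcaACCTCCaatgtgttc
Myl12b: cgccctcagcgcgcaACCTCCaatgtgttc
Myl12a and Myl12b have the same letters in this window, and Myl9 differs from them at 8 of the 30 bases. The 3′ UTRs, near which this 3′ counting assay reads, shared no run longer than 15 bases between Myl12a and Myl12b. Reads from the coding part may still not tell these 2 genes apart, so their values carry that uncertainty.

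The kinases come first. Rock1 and Rock2 are paralogous serine/threonine kinases that bind active RhoA. In GRCm38.p6, Rock2 spans chr12:16894978-16988274, and Rock1 is on chromosome 18. Rock2 was lower in the induced library in 10 of the 11 classes, including all 8 epithelial ones, and in dermal papilla-like cells its log2 ratio of induced over control was 0.03. A log2 ratio beyond 0.32 in either direction, where the libraries together hold 100 UMIs or more of a gene, is called past the fold limit below. Rock2 was past it lower in 5 classes: HG-like, sebaceous gland-like, basal interfollicular epidermis-like (IFE basal-like), IFE suprabasal-like and cycling keratinocyte-like cells.

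In HF-SC-like cells Rock2 was at 276 CPM (879 UMIs) in the control and 236 CPM (975 UMIs) in the induced library. The log2 ratio was −0.23 (95% counting interval −0.36 to −0.09). HG-like cells held 313 CPM (288 UMIs) and 248 CPM (244 UMIs) of it, a log2 ratio of −0.34 (−0.59 to −0.09). The intervals of both classes lie below 0 and overlap each other. In HG-like cells the value depended on which cells were taken: it was −0.05 among cells under 5% mitochondrial UMIs and −0.83 with stricter marker gates. Few cells remained under either: 28 control and 18 induced cells under the mitochondrial limit, and 27 and 12 with the stricter gates.

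The main values lay further below 0 in the IFE classes and in cycling keratinocyte-like cells. The latter are gated on cell cycle genes and not placed in follicle or epidermis. The intervals of these classes overlap that of HG-like cells. Only the cycling keratinocyte-like interval is clear of the HF-SC-like one, and the order of the classes was not tested. Rock2 went from 237 to 181 CPM in IFE basal-like cells (2420 and 1508 UMIs), a log2 ratio of −0.39 (−0.48 to −0.29). It went from 202 to 143 CPM in IFE suprabasal-like cells, a log2 ratio of −0.50 (−0.68 to −0.32). In cycling keratinocyte-like cells it went from 290 to 190 CPM, a log2 ratio of −0.61 (−0.80 to −0.42), the lowest of the 11 classes. Its values in the upper hair follicle-like (upper HF-like) and inner bulge-like classes were closer to 0, at −0.14 in each. In sebaceous gland-like cells it went from 164 to 115 CPM, a log2 ratio of −0.51, but the direction turned under the 5% mitochondrial limit.

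Outside the epithelium Rock2 stood highest. It was at 444 and 454 CPM in dermal papilla-like cells and at 510 and 454 CPM in fibroblast-like cells (control, then induced). The log2 ratio in fibroblast-like cells was −0.17 (−0.32 to −0.01). Intervals of these 2 classes overlapped in each library, and both lay above every other class. The lowest level of the 11 classes was in Langerhans and antigen-presenting-like cells, at 130 and 113 CPM, with intervals that overlapped those of sebaceous gland-like cells. The smaller T cell-like class was lower still, at 98.0 and 72.2 CPM (16 and 32 UMIs).

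The share of cells with a Rock2 UMI gave the same direction in HF-SC-like and HG-like cells. After allowing for depth by thinning each cell to 5000 UMIs, it was 67.2% of 311 control and 60.6% of 419 induced HF-SC-like cells, a difference of −6.58 points (−13.5 to 0.49). In HG-like cells it was 73.5% of 68 and 57.1% of 70 cells, a difference of −16.4 points (−31.1 to −0.50). Without thinning these differences were −6.81 and −11.3 points. T cell-like cells had the lowest share, 33.3% of 12 control cells (9.92% to 65.1%) and 25.0% of 44 induced cells (13.2% to 40.3%). The induced hair follicle shares lay above the second of these intervals, and the control intervals overlapped the first.

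**Figure D1:**
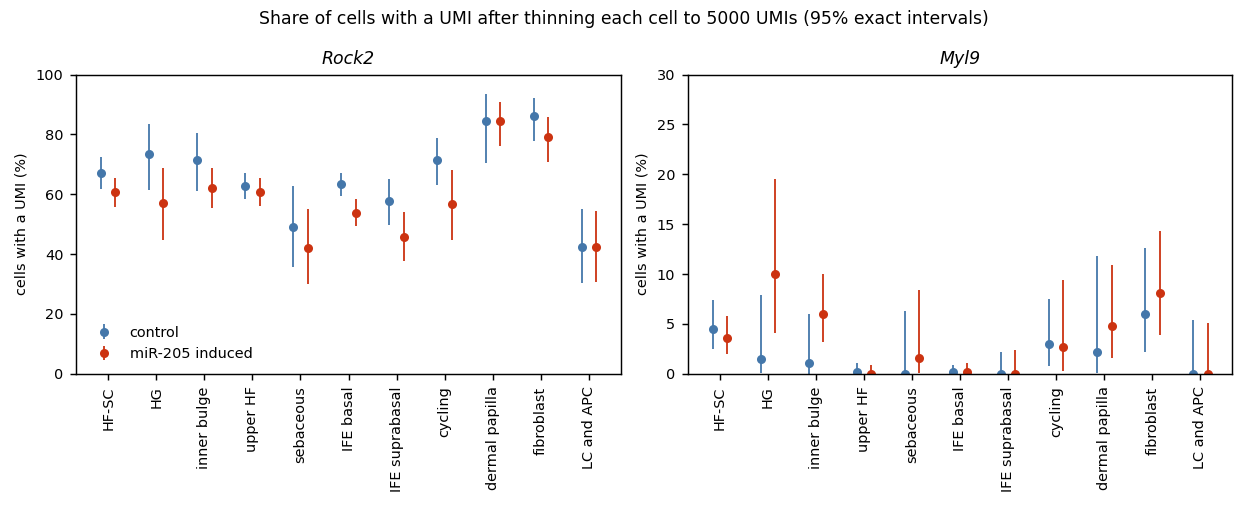
Share of cells with at least 1 UMI of Rock2 (left) or Myl9 (right) in 11 cell classes after thinning to 5000 UMIs, in percent, with exact 95% intervals; blue points are the control library and red points the induced library. Rock2 is at 73.5% (control) and 57.1% (induced) in HG-like cells, and Myl9 is at or below 10.0% in every class.

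Rock1 was lower in 8 of the 11 classes and higher in 3. In HF-SC-like cells it was at 144 CPM (459 UMIs) and 136 CPM (563 UMIs), a log2 ratio of −0.08 (−0.26 to 0.10). HG-like cells were at 162 CPM (149 UMIs) and 123 CPM (121 UMIs), a log2 ratio of −0.40 (−0.76 to −0.04). The HF-SC-like interval includes 0 and the HG-like one does not, and the difference between the 2 classes was not tested. Inner bulge-like cells (129 and 161 CPM, log2 ratio 0.32, 0.02 to 0.63) and fibroblast-like cells (145 and 181 CPM, log2 ratio 0.32, 0.05 to 0.59) had more Rock1 in the induced library, although giving each cell to the class with its highest standardised marker level turned the inner bulge-like value to −0.10. Rock1 was lower past the fold limit in 2 classes, HG-like and Langerhans and antigen-presenting-like cells, and past it higher in none.

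The lowest value of any member with at least 100 UMIs was that of Rock1 in Langerhans and antigen-presenting-like cells. It was at 209 CPM (155 UMIs) in the control and 116 CPM (99 UMIs) in the induced library, a log2 ratio of −0.85 (−1.23 to −0.48). It stayed between −0.95 and −0.49 over the 9 alternatives. In this class 24.1% of all genes with at least 100 UMIs were past the fold limit lower, 1 of 7 members was (Rock1), and 17.5% of genes and 1 of 7 members (Myh9) were past it higher. The Myh9 value, 0.35, had an interval that includes 0 (−0.06 to 0.78) and was 0.14 under 5% mitochondrial UMIs. Across the 11 classes Rock1 was highest in dermal papilla-like cells (225 and 246 CPM) and lowest in sebaceous gland-like cells (68.5 and 56.2 CPM) in both libraries. In the control the dermal papilla-like interval overlapped those of Langerhans and antigen-presenting-like, cycling keratinocyte-like and HG-like cells.

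Ppp1r12a encodes MYPT1, the targeting subunit of myosin phosphatase, which Rock kinases inhibit. It spans chr10:108162092-108279985 in GRCm38.p6. In HF-SC-like cells it was at 96.7 CPM (308 UMIs) and 79.9 CPM (330 UMIs), a log2 ratio of −0.28 (−0.50 to −0.05). Its level in HG-like cells was 115 CPM (106 UMIs) and 88.3 CPM (87 UMIs), a log2 ratio of −0.38 with an interval that includes 0 (−0.81 to 0.04). Both values lie below 0, as those of Rock2 do.

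In 3 other keratinocyte classes both genes were past the fold limit. Ppp1r12a went from 149 to 115 CPM in IFE basal-like cells, a log2 ratio of −0.37 (−0.49 to −0.25). It went from 147 to 113 CPM in IFE suprabasal-like cells, a log2 ratio of −0.38 (−0.58 to −0.17), and from 145 to 107 CPM in cycling keratinocyte-like cells, a log2 ratio of −0.43 (−0.69 to −0.18). In these 3 classes the members past the fold limit lower were Rock2 and Ppp1r12a and no others, 2 of 7 with at least 100 UMIs. The share of all such genes past it lower was 7.89% in IFE basal-like, 14.2% in IFE suprabasal-like and 19.8% in cycling keratinocyte-like cells. No member was past it higher in them, against 14.1%, 13.3% and 11.9% of genes in the same order. The Ppp1r12a value came inside the fold limit in IFE suprabasal-like cells when classes were set by the highest standardised marker level (−0.29), and in cycling keratinocyte-like cells without the deepest 5% of cells (−0.25) or without an upper limit on genes (−0.31). In control cells these 3 classes also had the highest Ppp1r12a levels of the 11, with intervals that overlapped each other. In fibroblast-like cells its interval included 0 (64.8 and 76.5 CPM, log2 ratio 0.24, −0.17 to 0.66).

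**Figure D2:**
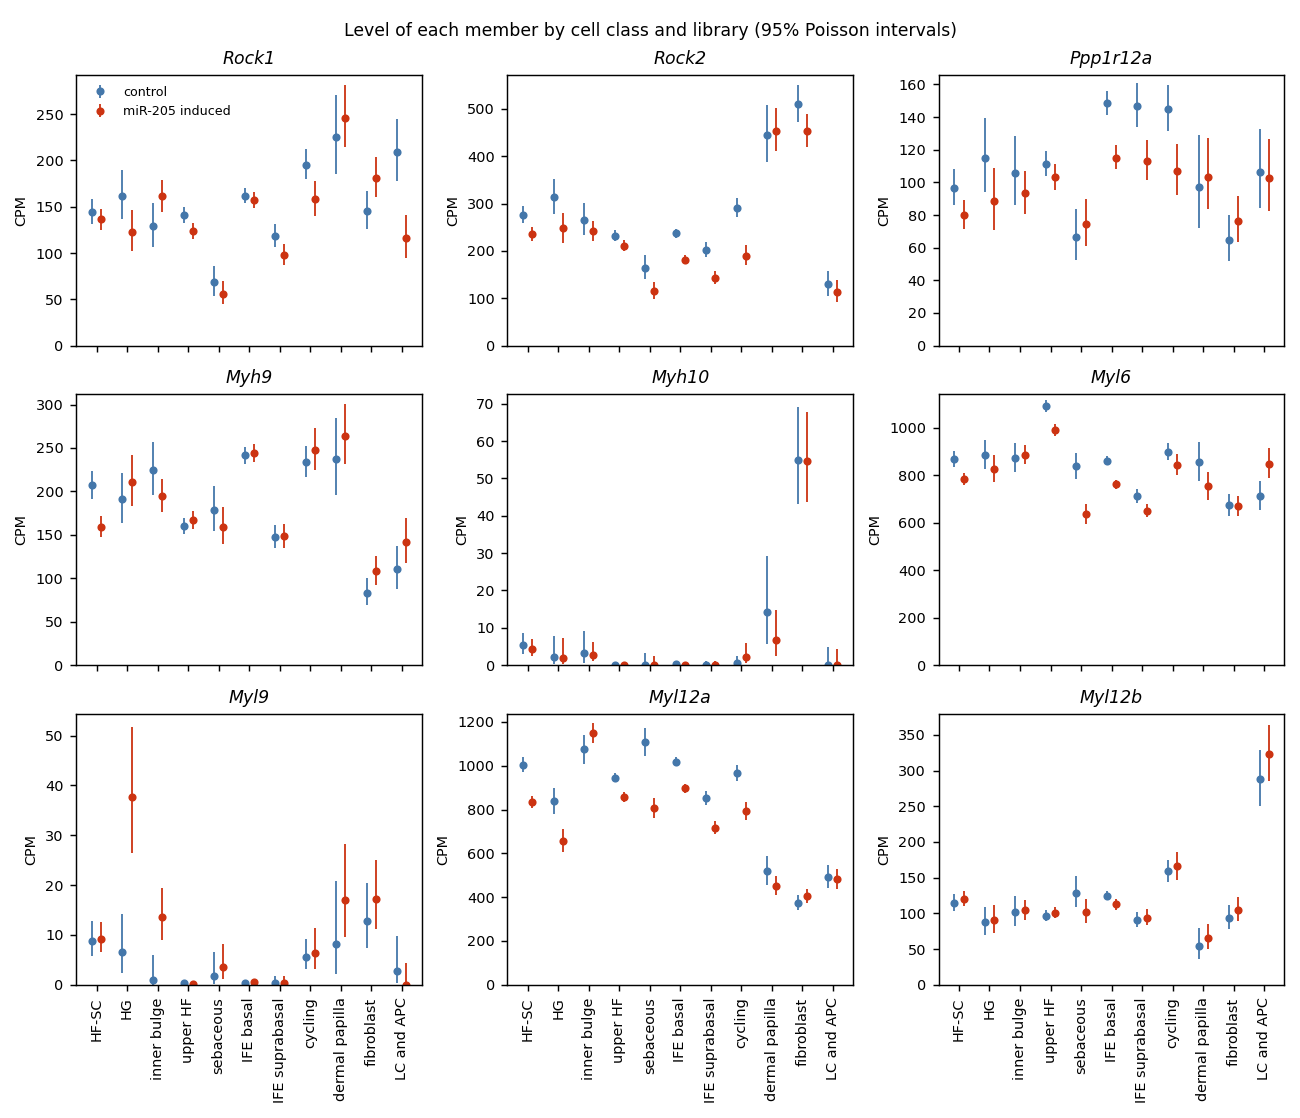
Level of each of the 9 genes in CPM of the class total, in 11 cell classes, for the control (blue) and induced (red) library, with 95% Poisson intervals; each panel has its own axis from 0. Rock2 is highest in dermal papilla-like and fibroblast-like cells, Myh10 is at 55.0 and 54.7 CPM in fibroblast-like cells and below 15 elsewhere, and Myl12b is highest of these classes in Langerhans and antigen-presenting-like cells.

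The heavy chains are the motor subunits themselves. Myh9 encodes the heavy chain of non-muscle myosin IIA and lies at chr15:77760585-77842175, and Myh10 encodes that of myosin IIB and lies at chr11:68691915-68816626 (GRCm38.p6). Myh9 was the single member past the fold limit lower in HF-SC-like cells, 1 of 7 members with at least 100 UMIs where 10.5% of 5879 such genes were past it. None of the 7 was past it higher, against 18.4% of all genes, or 9.10% with a minimum of 500 UMIs. Myh9 was at 207 CPM (660 UMIs) in the control and 159 CPM (659 UMIs) in the induced library, a log2 ratio of −0.38 (−0.54 to −0.22). Other ways of choosing or weighting cells brought it inside the fold limit: stricter marker gates gave −0.27, averaging CPM over cells gave −0.30, and giving each cell to the class with its highest standardised marker level gave −0.31.

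Over the 11 classes Myh9 was below 0 in 3 and above it in 8. In IFE basal-like cells, with 2465 and 2029 UMIs, it was at 241 and 244 CPM, a log2 ratio of 0.01 (−0.07 to 0.10). In fibroblast-like cells it was at 83.6 CPM (111 UMIs) and 108 CPM (164 UMIs), a log2 ratio of 0.37 (0.02 to 0.73). It was the single member of 8 past the fold limit higher there, where 16.4% of all genes were, while 11.8% of genes and no member were past it lower. It came inside the limit with stricter marker gates (0.24) and under 5% mitochondrial UMIs (0.26). In HG-like cells it was at 191 CPM (176 UMIs) and 211 CPM (208 UMIs), a log2 ratio of 0.14 (−0.15 to 0.44). That last value ranged from −0.22 to 0.75 over the alternatives and has no settled direction.

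Most Myh10 UMIs were found in fibroblast-like cells. Fibroblast-like cells were 2.72% of the kept control cells and held 61.9% of its UMIs, and 3.53% of the kept induced cells held 59.3%. Its level there was 55.0 CPM (73 UMIs) and 54.7 CPM (83 UMIs), a log2 ratio of −0.01 (−0.48 to 0.47). HF-SC-like cells held 17 and 18 of its UMIs, at 5.34 and 4.36 CPM, and HG-like cells 2 and 2. Both libraries had 0 Myh10 UMIs in sebaceous gland-like, IFE suprabasal-like, and Langerhans and antigen-presenting-like cells. The upper 95% Poisson bounds of these zeros lay between 1.14 and 4.98 CPM, so a level below that was not detectable.

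Myl6 encodes the essential light chain, which stabilises the neck of the motor, and lies at chr10:128490859-128493886 (GRCm38.p6). Its level spanned 1.62-fold between the highest and lowest class in the control and 1.56-fold in the induced library, a narrow span beside the 3.93-fold and 4.00-fold of Rock2. In HF-SC-like cells it was at 868 CPM (2763 UMIs) and 784 CPM (3239 UMIs), a log2 ratio of −0.15 (−0.22 to −0.07). Its HG-like levels were 887 and 828 CPM (816 UMIs in each), a log2 ratio of −0.10 (−0.24 to 0.04). It was highest in upper HF-like cells in both libraries, at 1092 and 991 CPM.

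The regulatory light chains lay on both sides of 0. Myl12a (chr17:70993793-71002533) and Myl12b (chr17:70973963-70990516, both GRCm38.p6) encode the light chains of most non-muscle cells. Myl12a was at 1005 CPM (3201 UMIs) and 834 CPM (3444 UMIs) in HF-SC-like cells, a log2 ratio of −0.27 (−0.34 to −0.20). Its level in HG-like cells was 838 CPM (771 UMIs) and 658 CPM (648 UMIs), a log2 ratio of −0.35 (−0.50 to −0.20). Both intervals lie below 0, and the value stayed below 0 under all 9 alternatives in each class.

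Its neighbour Myl12b gave no such value. It was at 114 CPM (364 UMIs) and 121 CPM (498 UMIs) in HF-SC-like cells, a log2 ratio of 0.08 (−0.12 to 0.28), and at 88.0 and 90.4 CPM in HG-like cells, a log2 ratio of 0.04 (−0.41 to 0.49). Across classes Myl12a was below 0 in 9 of 11, and Myl12b in 2 of the 10 where it had at least 100 UMIs. The classes also ordered differently for these 2 genes. Of the 11, Myl12b was highest in Langerhans and antigen-presenting-like cells, at 287 and 323 CPM (T cell-like cells, a smaller class, were at 698 and 686 CPM), whereas Myl12a was at 493 and 482 CPM there, below all 8 epithelial classes.

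Sebaceous gland-like cells, which make the lipid secretion of the follicle, were 1 of 2 classes with 4 members past the fold limit. Rock2, Myl6, Myl12a and Myl12b, 4 of 7, were past the fold limit lower, against 21.1% of all genes. Myl12a went from 1106 to 807 CPM, a log2 ratio of −0.46 (−0.57 to −0.34), and Myl6 from 838 to 636 CPM, a log2 ratio of −0.40 (−0.53 to −0.26). The Myl12b interval included 0 (−0.68 to 0.01), and its direction turned when CPM was averaged over cells (0.05) and under 5% mitochondrial UMIs (1.15). Under the latter Myl6 (−0.18) and Myl12a (−0.10) also came inside the fold limit, and averaging over cells brought Myl6 to −0.17. The class had 60 control and 71 induced cells, of which 6 and 10 were under 5% mitochondrial UMIs. None of the members was past the fold limit higher there, against 16.3% of all genes.

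HG-like cells also had 4 of 7 members past the fold limit lower, namely Rock1, Rock2, Ppp1r12a and Myl12a. The background was high, with 29.5% of 2209 genes past it lower and a median log2 ratio of −0.10 over all genes. None was past it higher, against 14.8%. The ribosomal protein genes took 26.3% of UMIs in control and 29.4% in induced HG-like cells, and no member remained past the fold limit lower when mitochondrial and ribosomal genes were left out of the total or when the libraries were scaled by the median of ratios. Fst, a marker of the class, differed between the libraries as given above. The part of either shift in the members' values was not tested further. The median over the 7 members was −0.34, and it lay between −0.36 and −0.16 over the alternatives.

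**Figure D3:**
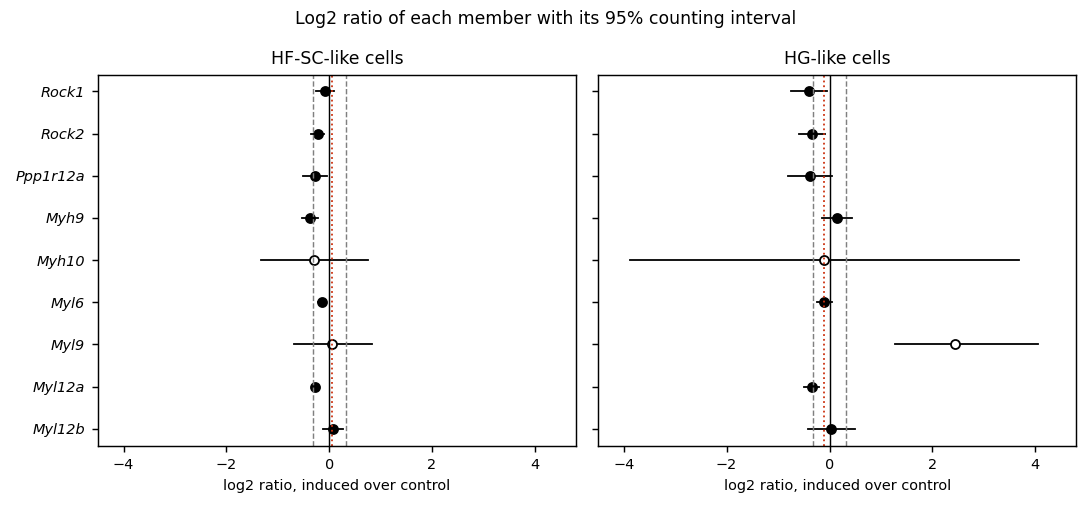
Log2 ratio of induced over control for each gene in HF-SC-like (left) and HG-like (right) cells, with 95% counting intervals; filled points have at least 100 UMIs over both libraries and open points fewer. Dashed lines mark the fold limit (0.32) and the red dotted line the median of all genes. Myh9 is past the fold limit lower in HF-SC-like cells, and Myl9 in HG-like cells is far to the right at 2.43 on few UMIs.

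In the remaining classes few members passed the fold. In upper HF-like cells none of 7 was past the fold limit in either direction, against 7.07% of genes lower and 10.8% higher. In inner bulge-like cells none of 7 was either, against 14.1% and 14.4%. In dermal papilla-like cells none of 6 was, against 20.8% and 17.1%. The members' median log2 ratio was −0.14 in upper HF-like, 0.02 in inner bulge-like and 0.06 in dermal papilla-like cells, and the median of all genes was within 0.03 of 0 in each of them.

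Set side by side, the members' medians were below the all-gene median by more than 0.1 in 7 of the 8 epithelial classes, the exception being inner bulge-like cells. They were −0.23 in HF-SC-like, −0.18 in IFE basal-like, −0.25 in IFE suprabasal-like and −0.29 in cycling keratinocyte-like cells, where all genes had medians of 0.05, 0.03, −0.01 and −0.05. In fibroblast-like cells the members' median was 0.14 and that of all genes 0.03. In Langerhans and antigen-presenting-like cells both were close to 0, at −0.03 and −0.04. The classes come from the same 2 mice and are not replicates of the induction.

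**Figure D4:**
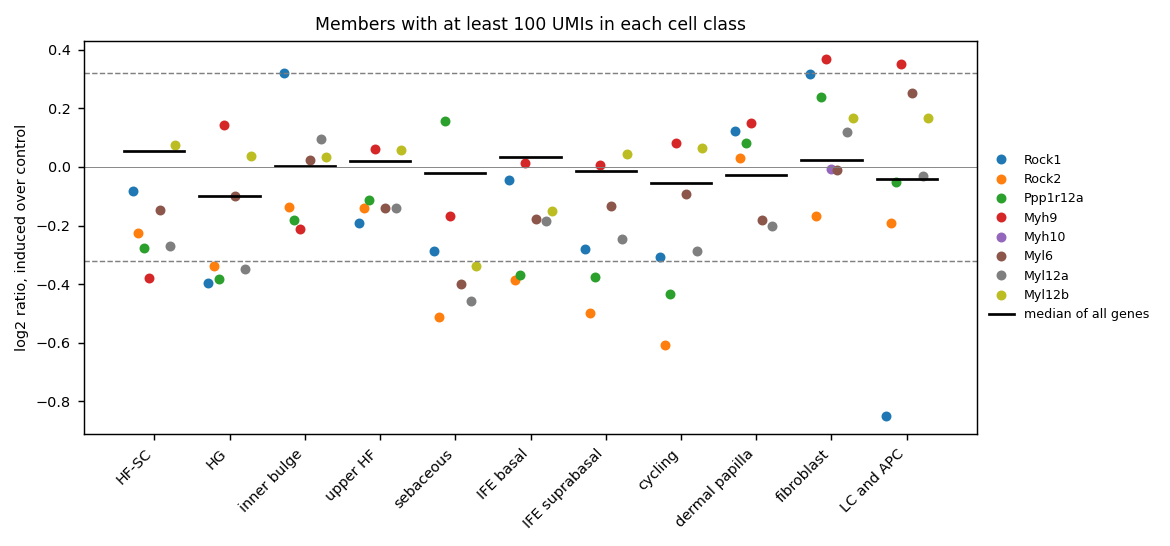
Log2 ratio of induced over control (vertical axis) for the members with at least 100 UMIs in each of 11 cell classes; each colour is a gene, black bars are the median of all genes with at least 100 UMIs, and dashed lines mark the fold limit (0.32). Rock2 (orange) lies below 0 in every class but dermal papilla-like, and Rock1 in Langerhans and antigen-presenting-like cells is the lowest point at −0.85.

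Myl9 encodes the regulatory light chain typical of smooth muscle and lies at chr2:156775408-156781657 (GRCm38.p6). It was sparse, with 179 control and 295 induced UMIs over all kept cells, and had under 100 UMIs in every class. In HF-SC-like cells it was at 8.79 CPM (28 UMIs) and 9.20 CPM (38 UMIs), a log2 ratio of 0.06 (−0.68 to 0.82). In HG-like cells it was at 6.52 CPM (6 UMIs in 4 cells) and 37.6 CPM (37 UMIs in 10 cells), a log2 ratio of 2.43 (1.27 to 4.06). In inner bulge-like cells 1 control UMI among 94 cells stood against 29 induced UMIs in 22 of 226 cells, a log2 ratio of 3.12 (1.09 to 9.03). That value rests on 1 control UMI and ran from 0.79 to 3.89 over the alternatives.

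The HG-like value rested on few cells. The 5 cells with most Myl9 held 73.0% of its induced UMIs. Summed over the 6 smooth muscle markers (Acta2, Tagln, Myh11, Des, Cnn1 and Rgs5), HG-like cells held 22 UMIs in the control and 51 in the induced library, with 3 of the 6 markers at 0 in each. Of the 51, 36 were in the 10 Myl9-positive cells and 34 of those were Tagln, an actin-binding protein of smooth muscle, while Acta2 had 2. Their part in the Myl9 value was not tested. The thinned share with a Myl9 UMI was 1.47% of 68 control and 10.0% of 70 induced HG-like cells, a difference of 8.53 points (0.36 to 17.8); without thinning the shares were 5.80% and 14.3%. In T cell-like cells, which should lack the gene, it was 0 of 12 and 0 of 44 cells, with upper limits of 26.5% and 8.04% at lower median depths (4359 and 5087 UMIs per cell, against 12350 and 13221.5 in HG-like cells).

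**Figure D5:**
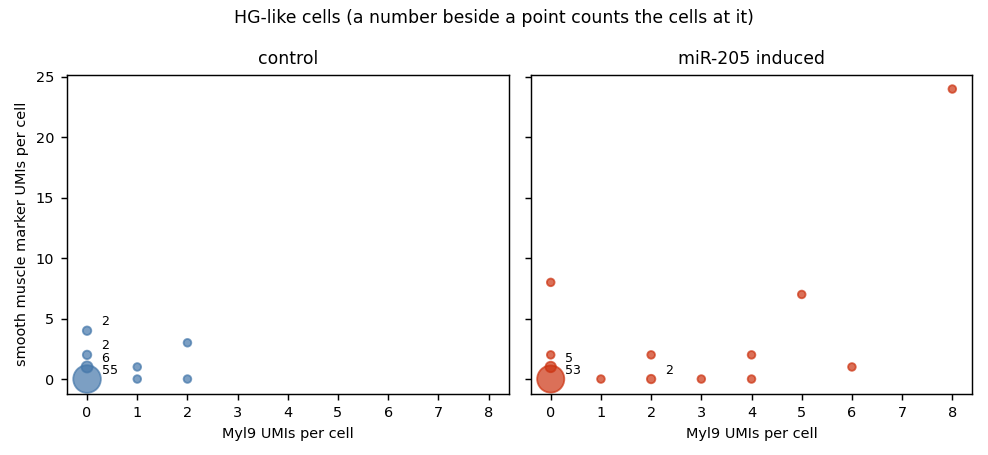
Myl9 UMIs (horizontal axis) against the summed UMIs of 6 smooth muscle markers (vertical axis) in each of the 69 control and 70 induced HG-like cells; a number beside a point counts cells that share it. Most cells sit at 0 on both axes (55 and 53), and 1 induced cell holds 8 Myl9 and 24 marker UMIs.

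Myl9 was also found in the stroma. It was at 12.8 and 17.1 CPM in fibroblast-like cells and at 8.11 and 17.1 CPM in dermal papilla-like cells (4 and 15 UMIs), with intervals that overlapped between libraries. The few smooth muscle-like cells, 4 in each library, held 4 and 18 Myl9 UMIs. Upper HF-like, IFE basal-like and IFE suprabasal-like cells held between 1 and 4 UMIs in each library. In cells passing no gate it had 78 and 87 UMIs.

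Promoter letters were read for all members with a window. RefSeq promoter windows, 250 bases before to 50 after each start in GRCm38.p6, were present for 8 of the 9 genes (Myl6 with 2 starts). They were searched for the CArG box, the palindromic element bound by serum response factor, so a match covers both strands. It was found in 1.63% of all 32851 windows and, among the members, in those of Myl9 and of 1 start of Myl6, shown with the box in capitals:
Myl9, chr2:156775303-156775312, plus strand: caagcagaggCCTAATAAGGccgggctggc
Myl6, chr10:128493050-128493059, minus strand: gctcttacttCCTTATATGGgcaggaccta
No match in the other windows says only that these letters are not in them.

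Differences between HG-like and HF-SC-like cells could be read within each library. Myl12a was lower in HG-like cells in both, with a log2 ratio of HG over HF-SC of −0.26 (−0.38 to −0.15) in the control and −0.34 (−0.46 to −0.22) in the induced library. Myl12b was too, at −0.37 (−0.74 to −0.03) and −0.41 (−0.76 to −0.09). Rock1, Rock2, Ppp1r12a and Myl6 had intervals that included 0 in both libraries. Myh9 was at −0.11 (−0.36 to 0.13) in the control and 0.41 (0.17 to 0.63) in the induced library. Myl9, on few UMIs, was at −0.34 (−1.99 to 0.87) and 2.03 (1.34 to 2.72). These contrasts were not run under the alternatives, and the induced over control value of Myh9 in HG-like cells had no settled direction.

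The other genes of the pathway were taken from 6 lists with 59 genes: small GTPases related to RhoA and their regulators, other kinases of the light chain, other phosphatase subunits and inhibitors, the LIM kinase arm, other Rock substrates, and other myosin chains. In HF-SC-like cells 37 had at least 100 UMIs, of which 2 were past the fold limit lower and 11 higher (10.5% and 18.4% of all genes), with a median log2 ratio of 0.12 beside 0.05 for all genes. In HG-like cells 20 had, of which 6 were lower and 4 higher (29.5% and 14.8% of all genes). In HF-SC-like cells the wider pathway had more genes past the limit higher than lower, but only 3 and 1 with a minimum of 500 UMIs. The 7 tested members had 0 higher and 1 lower, too few to set against the pathway. All genes leaned higher at the minimum of 100 UMIs, but not at 500. With a minimum of 500 UMIs, 9.10% of all genes were past the limit higher. The share lower was between 10.9% and 13.7% at the minimums of 20 and 500 UMIs. Among the tested members Ppp1r12a had the fewest UMIs, 308 and 330, so the 100-UMI background includes sparser genes. Members and background were not compared at matched UMIs.

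In HF-SC-like cells the lowest pathway gene was Rnd3, an atypical small GTPase that inhibits Rock1, at 228 CPM (726 UMIs) and 145 CPM (601 UMIs), a log2 ratio of −0.65 (−0.81 to −0.49). Dlc1, a GTPase-activating protein for RhoA, was at 63.1 and 47.4 CPM, a log2 ratio of −0.41 (−0.70 to −0.12). Arhgap35, which encodes the GTPase-activating protein p190A, was at 22.3 and 18.2 CPM, a log2 ratio of −0.30 with an interval that includes 0 (−0.78 to 0.19).

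The highest pathway gene in HF-SC-like cells was Arhgef11, a RhoA-activating exchange factor, at 7.54 CPM (24 UMIs) and 18.6 CPM (77 UMIs), a log2 ratio of 1.29 (0.63 to 2.03). Rhoc, a small GTPase related to RhoA, was at 27.6 and 38.7 CPM, a log2 ratio of 0.48 (0.10 to 0.88). Cdc42bpb, a kinase related to Rock that acts downstream of Cdc42, was at 14.4 and 20.1 CPM, a log2 ratio of 0.47 (−0.06 to 1.03). Rhoc was also among the highest in HG-like cells.

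In HG-like cells the lowest were Pak1, a kinase downstream of Rac and Cdc42, with a log2 ratio of −0.86 (−1.42 to −0.34; 82 and 48 UMIs), Ppp1r14c, an inhibitor of myosin phosphatase, with −0.70 (−1.10 to −0.30; 135 and 89 UMIs), and Msn, which links membrane to actin, with −0.47 (−0.75 to −0.19; 252 and 195 UMIs). The highest were Rhob, a stress-responsive small GTPase, with 0.80 (0.46 to 1.16; 107 and 200 UMIs), Svil, a myosin-binding scaffold, with 0.56 (−0.03 to 1.19; 39 and 62 UMIs), and Rhoc with 0.52 (0.09 to 0.97; 74 and 114 UMIs).

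Genes whose level ran most like that of a member across the 11 classes were ranked by Pearson r of log2(CPM + 1), taking the lower of the control and induced value, among 4911 genes. These are descriptions over 11 points that share a library and depth. For Rock2 the closest were Sdc2 (r 0.95 control, 0.96 induced) and Gpx8 (0.95 and 0.93), and for Myh10 Col5a2 (0.98 and 0.98) and Igfbp6 (0.99 and 0.97). For Myl9 they were Fbln1 (0.89 and 0.90) and Maged1 (0.86 and 0.87). Rock2 and Myh10 were also the closest pair among the members, at 0.87 and 0.85, and both were high in fibroblast-like cells.

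The closest genes of the other members were different ones. Myl12a was closest to Nedd4l (0.98 and 0.95), and Myl12b to Mthfs (0.90 and 0.90) and Akr1a1 (0.89 and 0.89). Myh9 was closest to Hnrnpu (0.87 and 0.90) and Tpm4 (0.85 and 0.91), a tropomyosin of the actin cytoskeleton. Ppp1r12a was closest to Arpc2 (0.85 and 0.83), an actin nucleator subunit, and Cap1 (0.82 and 0.85), an actin-binding protein. Rock1 was closest to Rapgef6 (0.90 and 0.92) and Crk (0.89 and 0.96), and Myl6 to Mapk3 (0.72 and 0.71) and Gigyf2 (0.78 and 0.70).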

How the data were processed

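Single-cell RNA-seq of back skin was analysed from 1 control and 1 miR-205-induced mouse. The authors counted UMIs with Cell Ranger (version 3.0.1 per the file headers; build mm10 per the submitters' processing notes) and deposited raw counts per gene and barcode, without normalization. Cells with more than 200 and fewer than 5000 genes and under 10% mitochondrial UMIs were kept, as in the study. Classes were set by UMI minimums on fixed markers; the minimums were chosen after the marker UMIs, but not the members' values, had been seen. Cells passing gates of 2 incompatible classes (56 control, 66 induced) were left out, which was the only treatment of doublets, and 1553 and 1116 cells passed no gate. The members and pathway lists were chosen with earlier results of these data known. Named genes were all 9 members, the 3 highest and 3 lowest pathway genes with at least 100 UMIs in HF-SC-like and HG-like cells, and the 2 genes most like each member, of which 1 is not reported here; Myh10 in small counts, marker genes and Tagln were named after their values were seen.

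UMIs were summed per class and library and divided by the class total (CPM). For log2 ratios of the induced to the control library, 0.5 UMIs were added to each sum; levels carry exact Poisson and ratios exact conditional binomial 95% intervals. A gene counted as past the fold beyond a log2 ratio of 0.32 in either direction with at least 100 UMIs over both libraries. Shares are the number of cells expected to hold a UMI over all thinnings to 5000 UMIs, to the nearest cell, leaving out shallower cells, with exact Clopper-Pearson intervals and Wilson-based intervals for differences. The code was tested on simulated data. UTRs were read from GENCODE vM1 on NCBIM37, promoters, miRNA and gene positions from RefSeq on GRCm38.p6. Python 3.11.15, numpy 2.4.6, scipy 1.17.1, pandas 2.3.3 and matplotlib 3.10.9 were used. In all, 12 alternatives were tried.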

Additional observations from a re-analysis of the deposited data

Results flagged for a closer look

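Myh9, the heavy chain of non-muscle myosin IIA, lay on opposite sides of 0 in 2 cell classes of the same mice. Its log2 ratio of induced over control was −0.38 in HF-SC-like cells and 0.37 in fibroblast-like cells, with both counting intervals leaving out 0. Of all genes, 10.5% were past the fold limit lower in the first class and 16.4% higher in the second. After thinning, 53.4% of control and 49.2% of induced HF-SC-like cells held a Myh9 UMI, a difference of −4.21 points (−11.5 to 3.11). In fibroblast-like cells the shares were 33.0% and 39.5%, with overlapping intervals. Over 9 alternatives the values ran from −0.44 to −0.27 and from 0.24 to 0.54. The difference between the classes was not tested, since each class has 1 library per group.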

How the results depend on the processing

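No paired analysis was possible because each group has 1 library. Over 9 alternatives the members' median log2 ratio stayed below 0 in HF-SC-like cells (−0.33 to −0.17) and HG-like cells (−0.36 to −0.16), and Rock2 stayed below 0 in every class where it began there except sebaceous gland-like cells, where it was 0.24 under 5% mitochondrial UMIs. The count of members past the fold limit (0.32 on the log2 scale) lower in HF-SC-like cells was 1, and became 4 under 5% mitochondrial UMIs, 3 with median-of-ratios scaling, and 0 with mean CPM over cells or with classes set by the highest standardised marker level. In HG-like cells it was 4, and became 1 under 5% mitochondrial UMIs, 0 without mitochondrial and ribosomal totals, 0 with median-of-ratios scaling, 1 without the 5 top cells of each gene, and 2 with stricter gates, which also put 1 member past it higher. The median in dermal papilla-like cells moved from 0.06 to 0.16 with median-of-ratios scaling. With a minimum of 20 UMIs, 5 pathway genes were lower in HF-SC-like and 12 in HG-like cells, and 26.2% of all genes were higher in HG-like cells. With a minimum of 500 UMIs, 1 pathway gene was lower and 3 higher in HF-SC-like cells, where 9.10% of all genes were higher, and 1 was lower and 0 higher in HG-like cells. The cause of these moves was not tested beyond the number of genes or cells each setting leaves. Of the values for single genes in a class, 830 stayed within their counting interval and 60 did not. The 60 include Myh10 in sebaceous gland-like, IFE suprabasal-like, and Langerhans and antigen-presenting-like cells, where it has 0 UMIs and so no interval. A further 1 that was past the fold limit with an interval clear of 0 changed sign (Rock2 in sebaceous gland-like cells, above). Myl9 is limited by depth in every class, and Myh10 outside fibroblast-like cells. With 1 mouse per group no spread between animals was measured.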
